A study of Mus musculus with 2 samples.

Results

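The regions described here are the EP300 peaks that lay farther than 100 kb from every transcription start site (TSS) of a protein-coding gene, called far peaks below. They were chosen from the authors' optimal peak list by position alone: the summit, the position of highest signal inside a peak, had to be over 100 kb from each TSS of the 21924 protein-coding genes in GENCODE release M21. Of the 17043 optimal peaks on assembled chromosomes, 1092 met this rule, 6.41% (95% Wilson interval 6.05% to 6.78%). Of the far peaks, 270 had their summit in an intron of a long coding gene, 817 lay outside coding genes, and 5 lay in exons. The measurement was ChIP-seq with an antibody against EP300 in whole liver of B6NCrl mouse embryos at 14.5 days, males and females mixed, and there was 1 group and no treatment, mutant or second tissue. The 2 libraries, numbered as biological replicates 1 and 2, were both made from pulverized livers pooled over several dissections and carry 1 biosample label, so the spread between them may be technical. Whole liver mixes cell types, and a weak peak in many cells cannot be told apart from a strong peak in few cells.

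EP300, or p300, is an enzyme that acetylates histones and other nuclear proteins and helps switch genes on. It does not itself recognise a DNA sequence and is brought to enhancers and promoters by transcription factors, so its peaks are widely used to map active enhancers, some of which act on a gene over long distances or from within the intron of another gene. The embryonic liver at this stage is the main site of blood formation and is rich in red cell precursors, in which GATA1, TAL1 and KLF1 are leading transcription factors. GATA factors bind short sequences read here, on either strand, as AGATAA and its variant AGATAG or as TGATAA and its variant TGATAG, and TAL1 with its partners often binds a partial E-box (CTG) placed 7 or 8 bases before a GATA sequence, called the E-box GATA composite here.

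The sequences of 8 far peaks are shown, all from its strong end: strong members with GATA sequences, whose letters the results below turn on, and the strongest members without one. Each is the 201 bases centred on the summit, plus strand of GRCm38 (mm10), from RefSeq, 5′ to 3′; capitals mark GATA matches on either strand. The first 4 lie in introns: 2 of the strongest far intron peaks, in Sugct (chr13:17027933-17028133) and Fbxl17 (chr17:63312437-63312637), then the strongest far intron peak with a composite, in Gse1 (chr8:120371839-120372039), and the strongest without a GATA match, in Rad51b (chr12:79612856-79613056).
Sugct: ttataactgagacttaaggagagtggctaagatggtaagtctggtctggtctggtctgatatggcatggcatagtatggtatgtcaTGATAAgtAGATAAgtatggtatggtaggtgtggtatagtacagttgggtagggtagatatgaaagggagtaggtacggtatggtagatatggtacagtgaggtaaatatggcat
Fbxl17: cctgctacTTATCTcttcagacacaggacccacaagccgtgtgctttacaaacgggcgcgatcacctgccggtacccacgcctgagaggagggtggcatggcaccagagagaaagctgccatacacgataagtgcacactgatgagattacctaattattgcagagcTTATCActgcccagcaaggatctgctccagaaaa
Gse1: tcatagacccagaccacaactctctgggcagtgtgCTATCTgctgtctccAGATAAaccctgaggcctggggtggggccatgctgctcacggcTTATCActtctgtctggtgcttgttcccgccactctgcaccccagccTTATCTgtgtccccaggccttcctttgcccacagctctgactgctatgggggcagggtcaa
Rad51b: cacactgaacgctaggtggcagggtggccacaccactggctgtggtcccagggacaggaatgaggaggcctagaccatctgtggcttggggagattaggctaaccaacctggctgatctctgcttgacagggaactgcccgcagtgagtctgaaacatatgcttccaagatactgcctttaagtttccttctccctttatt

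The other 4 lie outside coding genes and are named by the coding gene with the nearest TSS: the 3 strongest, by Fam49a (chr12:12488197-12488397), Bmp4 (chr14:46539903-46540103) and Nnt (chr13:119232473-119232673), of which the Nnt peak is also the strongest with a composite, and the strongest without a GATA match, by Ccser2 (chr14:36691064-36691264).
Fam49a: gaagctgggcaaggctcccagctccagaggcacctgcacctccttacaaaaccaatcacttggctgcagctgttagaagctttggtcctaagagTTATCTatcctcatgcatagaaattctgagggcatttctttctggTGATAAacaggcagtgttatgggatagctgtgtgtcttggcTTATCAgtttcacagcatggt
Bmp4: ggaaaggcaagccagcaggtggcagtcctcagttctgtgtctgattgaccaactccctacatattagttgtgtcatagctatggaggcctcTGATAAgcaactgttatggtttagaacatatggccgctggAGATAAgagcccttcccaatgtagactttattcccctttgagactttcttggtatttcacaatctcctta
Nnt: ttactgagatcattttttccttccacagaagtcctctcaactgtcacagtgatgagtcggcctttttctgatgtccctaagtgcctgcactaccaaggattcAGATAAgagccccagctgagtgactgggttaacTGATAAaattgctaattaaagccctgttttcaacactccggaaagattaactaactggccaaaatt
Ccser2: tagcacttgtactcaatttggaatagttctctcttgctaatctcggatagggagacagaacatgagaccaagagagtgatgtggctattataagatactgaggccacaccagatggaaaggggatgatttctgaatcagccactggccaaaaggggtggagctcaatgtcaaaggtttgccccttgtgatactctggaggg

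In the Sugct peak the pair of GATA matches started 14 and 6 bases before the summit, and in the Nnt peak they started 2 and 35 bases after it. The Gse1 sequence held 4 GATA matches and 3 composite matches, which share GATA letters with them. The Rad51b and Ccser2 sequences each held 1 E-box (CAGATG or CAGCTG on either strand) and no GATA match. For these, that says only that the GATA letters are not in the 201 bases shown.

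Over all peaks, the share of far peaks with a signal above the median did not differ from that of distal peaks closer to genes beyond counting error, while far peaks took a larger share of the 200 strongest peaks than of all optimal peaks. Peak signal, the value that the authors' peak calling gave to a peak, had a median of 41.3 over the 1092 far peaks, with a range of 5.28 to 528.1. It was 41.9 over the 12028 nearer distal peaks, those with a summit over 1 kb and up to 100 kb from a coding TSS, and 31.1 over the 3923 peaks within 1 kb of one. Above the median of all optimal peaks, 38.5, lay 579 far peaks, 53.0%, against 50% of all optimal peaks by construction and 53.3% of nearer distal peaks, a difference of -0.28 percentage points (95% Newcombe interval -3.38 to 2.80). In the strongest decile lay 11.6% of far peaks, against 10% of all optimal peaks, and 0.42 points more than of nearer distal peaks (-1.44 to 2.53). Neither interval left out 0. With the strongest peak of each cluster alone (summits within 10 kb joined), 58.3% of far and 62.2% of nearer distal peaks lay above the median, a difference of -3.90 points (-7.60 to -0.27) that did leave out 0. Far peaks were 6.41% of all optimal peaks, but 5 of the 20 strongest (25%, Wilson interval 11.2% to 46.9%), 13 of the 100 strongest (13%, lower bound 7.76%), 24 of the 200 strongest (12%, 8.20% to 17.2%) and 74 of the 1000 strongest (7.4%, 5.94% to 9.19%). For the first 3 the lower bound lay above 6.41%, and the last interval included it. These cuts were chosen after the values were seen. All optimal peaks include the peaks within 1 kb of a coding TSS, which had a lower median signal. These shares therefore do not compare far peaks with nearer distal peaks. Far intron peaks and far peaks outside genes had medians of 41.6 and 41.2.

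The far peaks were sparse. Sequence farther than 100 kb from a coding TSS made up 35.8% of the known bases of the autosomes and X and held 1.19 peaks per Mb, against 9.70 per Mb in the rest. Within the far sequence, coding gene bodies held 1.95 far peaks per Mb and sequence outside them 1.05. The median distance from a far summit to the nearest coding TSS was 171808 bp, and 60 far peaks lay over 500 kb away. The 126 peaks at 90 to 100 kb had a median signal of 44.0 and the 99 at 100 to 110 kb one of 38.1, and in both groups 88.9% held a GATA match. A summit in both libraries was found for 96.0% of the former and 88.9% of the latter. The last peak not counted lay 99940 bp from a TSS, of 4930544G11Rik, and the first counted lay 100010 bp from that of Mki67, which encodes a proliferation marker. By another annotation, RefSeq, 1022 of the 1092 far peaks were also over 100 kb from every mRNA start.

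Both libraries recorded most far peaks, which the choice of members makes likely. The optimal list is labelled as thresholded by IDR, a measure of reproducibility. A summit of each library's own list, which holds 300000 peaks, lay within 100 bp of the far summit in 985 cases, 90.2%, against 84.3% of all optimal peaks and 88.0% of nearer distal peaks (difference 2.23 points, interval 0.24 to 3.96). Only replicate 1 had one at 36 far peaks, only replicate 2 at 61, and neither at 10, and the signal of those 10 did not exceed 14.2. When far peaks were ranked by signal and cut into 4 bins of 273, all in the strongest bin had a summit in both libraries and 68.1% in the weakest. Over the 985 peaks found in both, the signals followed each other (Spearman's rho 0.876 over peaks, which share the 2 libraries and are not replicates). The ratio of replicate 1 to replicate 2 had a median of 0.958 with a 5th to 95th percentile range of 0.443 to 1.90. It was taken without bringing the 2 lists to a common scale. A peak with the same bounds and summit was in the stricter conservative list for 81.6% of far peaks, against 78.4% of all optimal peaks. The difference from nearer distal peaks was 0.96 points (-1.55 to 3.26). Peaks with shifted bounds do not count as the same here, and the conservative list held 1013 far peaks of its own.

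**Figure D1:**
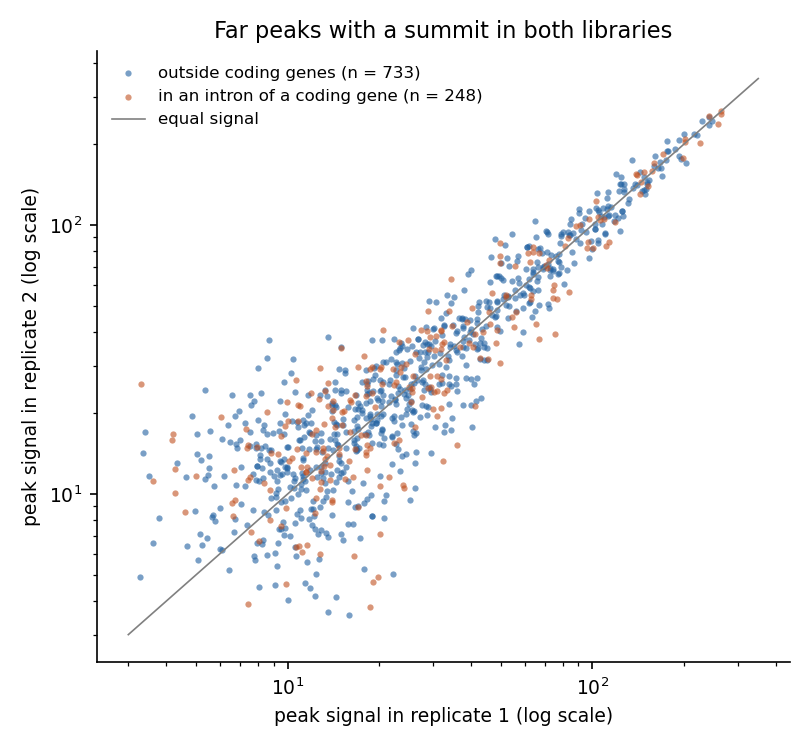
Signal of far peaks in replicate 1 (x axis) and replicate 2 (y axis), both on log scales without a unit, for the 733 peaks outside coding genes (blue) and 248 in introns (orange) that have a summit in both libraries; the grey line marks equal signal. The points close in on the line as the signal rises, and both classes cover the same range.

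In Sugct, which encodes a glutarate CoA-transferase, the far peak had 523.5 in the optimal list, 265.1 in replicate 1 and 257.5 in replicate 2, at 666703 bp from the nearest coding TSS. The Fbxl17 peak, in a gene for an F-box protein, had 494.7, with 258.9 and 237.3 in the 2 libraries, and lay 434 bp from the start of the noncoding RNA 4930405O22Rik. The Thsd4 peak had 493.9, with 240.9 and 253.0. In each of these 3 the signals of the 2 libraries were within 10% of each other, though each list has its own scale.

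Further peaks among the 15 strongest in introns had signals of 289.6 to 426.4. They lay in Gse1, Prkce (protein kinase C epsilon), Dscam (2 peaks; a neuronal adhesion molecule), Camta1, Npas3 (2), Aff3, Rbfox1 (a splicing regulator of neurons and muscle), Fbxl17 again and Ctif. The gene that holds a peak is not always the one with the nearest TSS: for 37 of the 270 far intron peaks, 13.7%, that was another gene. The 2 Npas3 peaks, at 355.8 and 294.1, were nearest to Egln3, a hypoxia-related prolyl hydroxylase, at 366295 and 371181 bp. The Ctif peak was nearest to Smad7, an inhibitor of TGF-beta signalling, at 115433 bp.

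The host genes were long. The 270 far intron peaks fell in 122 genes with a median length of 488.0 kb, against 17.4 kb over all coding genes, which the rule makes likely, since an intron far from every TSS needs a long gene. With the 5 far peaks in exons also counted, 53 of these genes had 1 far peak and 22 had 4 or more. Rad51b, a recombination gene, and Rasgef1b each held 7, and Camta1, Spock1, Vps13b, Col23a1 and Snx29 each held 6. In Rad51b the 7 signals ran from 15.2 to 188.6, and 6 of the 7 held a GATA match. In Vps13b all 6 held one, and 4 held a composite, against 91.2% and 31.4% of all far peaks. The strongest there reached 211.7. Prkce and Dscam were among those with 5. The far intron peaks farthest from a TSS were in Gpc5 at 886835 bp (signal 38.8) and in Grm8, which held 2 of the 3, at 777658 bp (27.4) and 774800 bp (101.8). The weakest, in Ntrk2, had 5.28 and no summit in either library.

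Among the 817 far peaks outside coding genes, the strongest lay 226108 bp from Fam49a and 452319 bp from Mycn on the other side, the latter a MYC family transcription factor. Its signal was 491.4 in the optimal list, 241.7 in replicate 1 and 251.6 in replicate 2. The next, 149334 bp from Bmp4, which encodes a bone morphogenetic protein, had 486.0, with 245.9 and 243.1. The Nnt peak had 476.6, with 241.4 and 234.3, and lay 176379 bp from the TSS of that mitochondrial transhydrogenase gene. Near Ndst4 the signal was 468.3, with 228.3 and 243.1. All 4 held at least 2 GATA matches, as did 56.4% of all far peaks, and the signals of the 2 libraries again differed little in value.

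The rest of the 15 strongest outside genes had signals of 363.2 to 438.1, and the nearest TSSs were those of Map3k1, Cartpt, Runx1, Fam98a, Vwc2l, Veph1, Pdcd6ip, Parp11, Mki67, Ube2e3 and Elac2. The Runx1 peak, 303534 bp from the nearest TSS of this transcription factor gene of blood stem cells, had 413.1 in the optimal list, 199.8 in replicate 1 and 217.0 in replicate 2. The peak nearest to Parp11, at 371.0, had Ccnd2, which encodes a cyclin of the cell cycle, on its other side at 170382 bp. The nearest gene by position is a label and was not shown to be the target. The most distant far peaks were nearest to Efna5 at 1406634 bp (signal 23.6), Zpld1 at 1379230 bp (42.0) and Zeb2 at 1253777 bp (61.5). The weakest, nearest to Klf3, had 5.41 and a summit in replicate 1 alone. The 5 exon peaks lay in Ola1 (383.7), Angpt1 (115.7), Sox5 (113.1), Exoc4 (21.1) and Auts2 (18.3) and held 1 to 3 GATA matches each. By RefSeq, the Angpt1 exon peak lay 7123 bp from an mRNA start.

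GATA sequences were the feature that most far peaks shared. Within 100 bp of the summit, 996 of 1092 far peaks, 91.2% (Wilson interval 89.4% to 92.7%), held a GATA match, against 74.7% of all optimal peaks and 85.1% of nearer distal peaks. The difference from nearer distal peaks was 6.13 points (95% Newcombe interval 4.20 to 7.80). In 201-base windows centred 500 bp to either side, 36.2% of far and 32.4% of nearer windows had a match. At least 2 GATA matches were in 56.4% of far peaks, against 41.9% of all optimal peaks and 7.20 points above nearer distal peaks (4.11 to 10.2), and 3 or more in 20.5%, 5.07 points above (2.68 to 7.64). The composite, which always contains a GATA match, was in 343 far peaks, 31.4%, against 22.4% of all optimal peaks and 25.6% of nearer distal peaks (difference 5.82 points, 3.02 to 8.74). It was in 1.47% of the windows flanking far peaks.

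**Figure D2:**
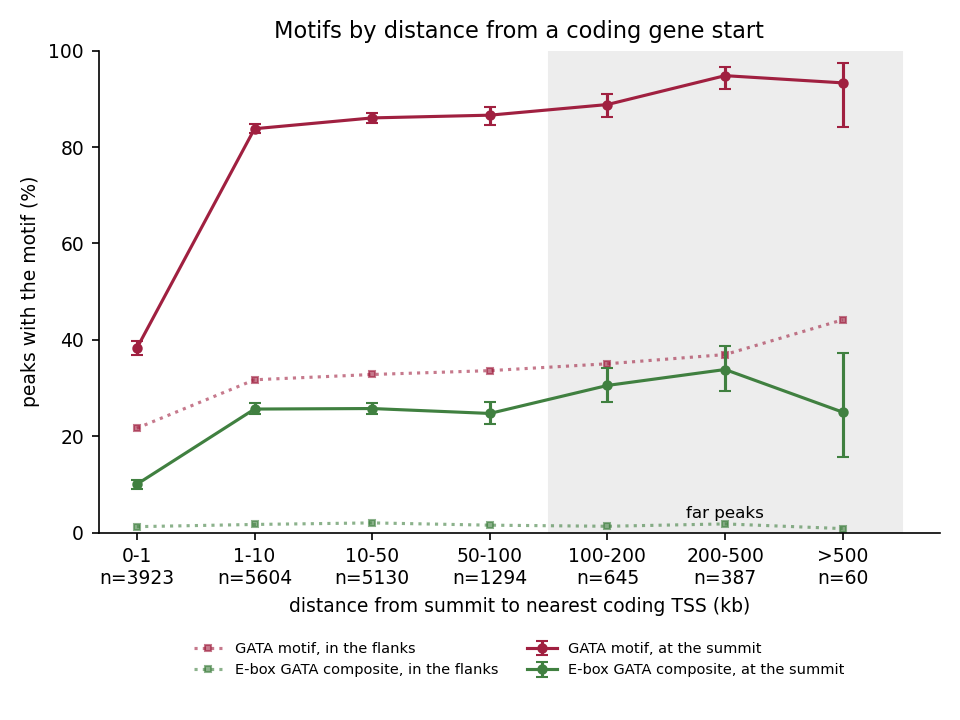
Share of optimal peaks with a GATA match (red) or an E-box GATA composite (green) within 100 bp of the summit, in percent, by distance of the summit from the nearest coding TSS in kb; bars are 95% Wilson intervals, dotted lines with squares the windows 500 bp to either side, and the grey area the far peaks. The GATA share is 38.3% within 1 kb, 83.8% at 1 to 10 kb, 88.8% at 100 to 200 kb and 94.8% at 200 to 500 kb.

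The share with GATA also differed among far peaks. It was 88.8% at 100 to 200 kb (86.2% to 91.0%), 94.8% at 200 to 500 kb (92.2% to 96.6%) and 93.3% over 500 kb (84.1% to 97.4%, 60 peaks), so the first and the second of these ranges do not overlap and the third overlaps both. The match nearest to the summit read AGATAA in 50.4% of far peaks that had one, TGATAA in 28.8%, AGATAG in 13.2% and TGATAG in 7.63%. In nearer distal peaks the same letters took 49.5%, 29.0%, 13.4% and 8.10%. The centre of the nearest match lay a median of 16.5 bp from the summit, and 55.9% lay within 20 bp. In the 616 far peaks with 2 or more matches the start-to-start distance had a median of 40 bp, with 320 pairs on the same strand and 296 on opposite strands.

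**Figure D3:**
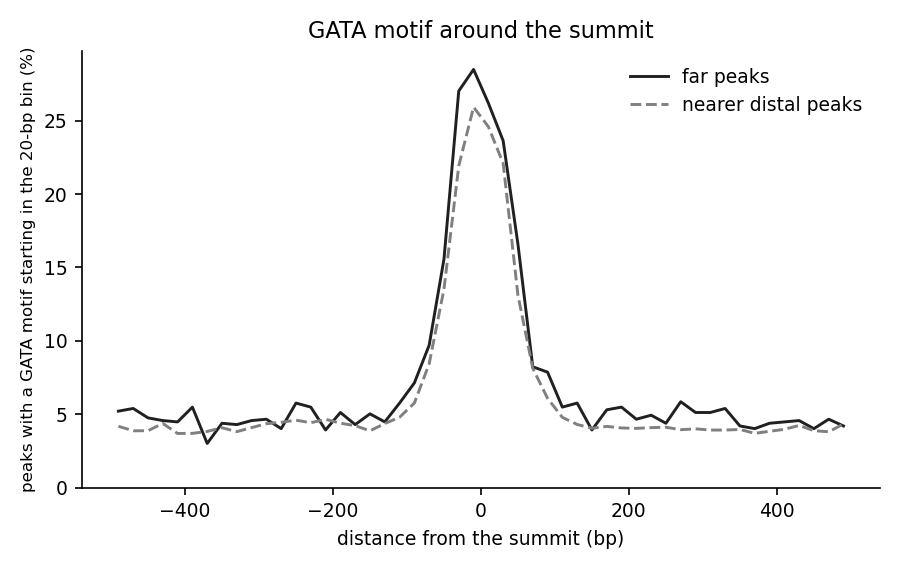
Share of peaks with a GATA match starting in each 20-bp bin, in percent, by distance from the summit in bp, for far peaks (solid black) and nearer distal peaks (dashed grey). Both curves peak at the summit, at 28.5% for far and 25.9% for nearer distal peaks, and stay under 6% beyond 100 bp.

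In percentage points, the GATA difference was widest in weak peaks. Distal peaks were split by signal into 4 bins, and in the weakest, up to 24.0, 81.0% of 274 far peaks and 69.0% of 3006 nearer peaks held a match, a difference of 12.1 points (6.74 to 16.6). In the next bin the difference was 6.01 points (1.85 to 9.18), in the third 2.68 (-0.93 to 5.16, which includes 0), and in the strongest, above 88.9, 4.03 (1.98 to 5.02). In that bin 266 of 268 far peaks, 99.3%, and 95.2% of nearer peaks held a match, which leaves little room for a difference in points. The composite differed by 5.70 to 9.30 points in the 3 weaker bins, with intervals that left out 0, and by 0.13 points (-5.71 to 6.30) in the strongest. Whether the bins differ from each other was not tested. Far peaks had less G and C, a median of 45.8% against 47.3%, and within 4 bins of G and C content the GATA difference was 4.76, 4.61, 5.98 and 6.16 points, each with an interval that left out 0. The composite difference within these bins was 6.91 points (1.83 to 12.4), 1.09 (-4.21 to 6.99), 11.3 (5.68 to 17.2) and 3.06 (-2.82 to 9.63), and 2 of the 4 intervals included 0.

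**Figure D4:**
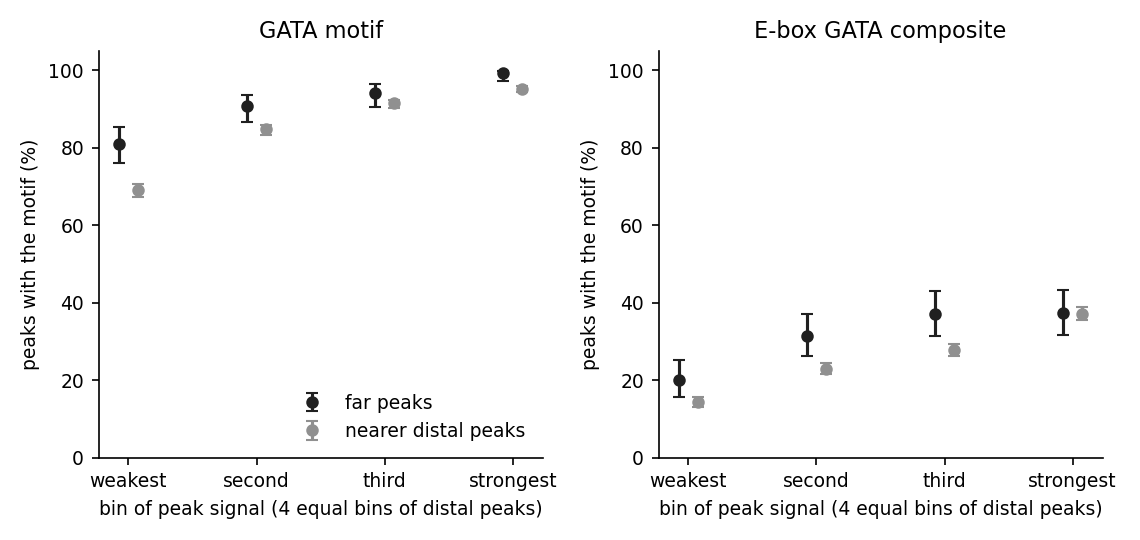
Share of peaks with a GATA match (left) and with an E-box GATA composite (right), in percent, in 4 bins of peak signal, for far peaks (black) and nearer distal peaks (grey); bars are 95% Wilson intervals. GATA shares rise with signal in both groups, and the far share is 81.0% against 69.0% in the weakest bin and 99.3% against 95.2% in the strongest.

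The 96 far peaks without a GATA match had a median signal of 22.3, the 996 with one 44.6, and 66.7% of them had a summit in both libraries, against 92.5%. The strongest, the Ccser2 peak shown above, had 207.2 in the optimal list, 90.5 in replicate 1 and 115.0 in replicate 2. In Rad51b the signal was 182.0, with 96.4 and 86.1.

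Other motifs differed less or were too rare to tell. CACCC boxes, which KLF factors bind (CCACACCC, CCACGCCC, CCCCACCC or CCCCGCCC), were in 9.98% of far peaks, against 14.6% of all optimal peaks and 12.4% of nearer distal peaks (difference -2.40 points, -4.14 to -0.39). The flanking windows also differed, with CACCC boxes in 4.03% of those of far peaks and 6.41% of those of nearer distal peaks. At the summit the share was 10.6% at 50 to 100 kb and 10.4% at 100 to 200 kb, so it did not drop at the limit. E-boxes were in 34.2%, against 30.6% of all optimal peaks, with a difference of 0.95 points (-1.93 to 3.94). The CTCF sequence, of a factor known for chromatin loop anchors, was in 3 far peaks, 0.275%, against 0.698% of all optimal peaks and 0.815% of nearer distal peaks (difference -0.54 points, -0.79 to 0.0095). Intervals for AP-1 (TGACTCA or TGAGTCA), ETS (CAGGAAG or CCGGAAG), RUNX (TGTGGTT), STAT (TTCNNNGAA), HNF4 (CAAAGTCCA), FOX (TGTTTAC or TGTTTGC) and CEBP (TTGCNNAA) included 0. The last 3 belong to factors known from hepatocytes; FOX was in 7.51% of far peaks and in 7.65% of their flanking windows, and HNF4 in 3 far peaks.

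Intron peaks and peaks outside genes differed in 3 of 22 measures, all of them motif shares. GATA was in 94.4% of far intron peaks and 90.1% of those outside, a difference of outside minus intron of -4.36 points (-7.47 to -0.47), and 3 or more GATA matches in 26.7% and 18.2% (-8.43 points, -14.5 to -2.77). RUNX was in 5.19% and 9.67% (4.48 points, 0.68 to 7.52). Each class was also set against nearer distal peaks of its own kind. GATA was 7.42 points higher in far intron peaks than in nearer intron peaks (3.92 to 9.73), and 7.62 points higher in far peaks outside genes than in nearer ones outside genes (5.13 to 9.79). STAT was 3.92 points higher in far than in nearer intron peaks (0.76 to 8.17), and RUNX 2.64 points higher in far than in nearer peaks outside genes (0.64 to 4.97). Of 88 differences computed in all, 30 had intervals that left out 0; the intervals are not adjusted for their number and cover counting error over peaks only.

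Far peaks were less crowded than peaks nearer to genes. Another optimal summit lay within 10 kb of 542 far peaks, 49.6%, against 60.2% of all optimal peaks and 60.7% of nearer distal peaks (difference -11.0 points, -14.1 to -7.95). The share was 65.2% at 1 to 10 kb, 57.4% at 10 to 50 kb and 54.0% at 50 to 100 kb. Among far peaks it fell from 53.6% at 100 to 200 kb to 31.7% over 500 kb. Peaks within 1 kb of a coding TSS were counted as neighbours. By the rule, none of them can lie within 10 kb of a far summit, while they can for nearer distal peaks. Part of the difference can therefore be set by the rule, and the size of that part was not computed. Joined at 10 kb, far peaks formed 769 clusters, of which 550 held a single peak and 10 held 5 or more far peaks. Over 50% repeat-masked sequence was found in 3.30% of far peaks, against 4.14% of all optimal peaks and 5.10% of nearer distal peaks (difference -1.80 points, -2.79 to -0.51). A TSS of a gene other than a protein-coding one lay within 1 kb of 46 far peaks, 4.21%, against 6.38% of all optimal peaks and with a difference from nearer distal peaks of 0.02 points (-1.08 to 1.43); 23 of these starts were of lincRNAs. Among peaks outside coding genes alone it was 4.77% of far and 6.86% of nearer peaks, a difference of -2.08 points (-3.56 to -0.26) that left out 0. Of the far peaks outside coding genes, 183 (22.4%) lay inside a noncoding gene. That share was not computed for nearer peaks, so whether it is high or low is not known.

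The largest cluster lay 193535 to 215258 bp from Klf3, which encodes a Kruppel-like repressor expressed in red cell precursors. Its 8 peaks spanned 21.7 kb, all held a GATA match and 6 had a summit in both libraries. The strongest peak there (chr5:64588010-64588281) had 303.2 in the optimal list, 143.3 in replicate 1 and 157.7 in replicate 2, and the next had 264.8, with 123.3 and 141.7. Klf3 was the nearest coding gene of 14 far peaks in all. A cluster of 6 by Ikzf2, an Ikaros family zinc finger gene, ran from 34.9 to 133.7, and those of 5 by Pik3r1, which encodes a regulatory subunit of PI3 kinase, and in Camta1 reached 353.4 and 375.5. The other clusters of 5 lay by Cited2, in Prkce, by Itga4, by Pdgfra, by Camk1g and in Snx29. In the clusters by Klf3, Ikzf2, Pik3r1, Camta1, Cited2, Prkce, Itga4 and Camk1g every peak held a GATA match. Those by Pdgfra and in Snx29 are not among these. Of all far peaks 91.2% held one, so such counts in small clusters are near the share of all far peaks.

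Far sequence was broken by coding TSSs into 2475 stretches, of which 431 held a far peak and 58 held 5 or more; those 58 held 416 of the 1092. The stretches from Tbc1d1 to Klf3 and from Myc to Gsdmc held 19 each. Myc, the proliferation factor, was the nearest coding gene of 17 far peaks, 112057 to 361753 bp from it. All 17 held a GATA match, against 91.2% of all far peaks. Its strongest far peak (chr15:62158813-62159286) had 331.0 in the optimal list, 167.8 in replicate 1 and 162.2 in replicate 2. A peak 712 bp from a start of Pvt1, a long noncoding RNA gene beside Myc, had 228.6, with 115.4 and 117.0. In contrast to the far peaks, the strongest of 6 nearer peaks of Myc had 89.4.

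Between Runx1 and Setd4 lay 13 far peaks, of which 7 were nearest to Runx1 at 303534 to 371377 bp. After the 413.1 peak, the next had 324.8 in the optimal list, 159.5 in replicate 1 and 165.4 in replicate 2, and lay 321555 bp from the TSS. Between Map3k1 and Ankrd55 the 13 peaks had a median of 117.3, the highest among the 9 stretches with 10 or more far peaks, and their strongest had 438.1, with 220.2 and 216.6. Between Pdgfra, a receptor of mesenchymal cells, and Kit, the stem cell factor receptor of blood progenitors and early red cell precursors, lay 10 far peaks. The strongest nearest to Kit (chr5:75460517-75460800), at 114265 bp, had 239.9 in the optimal list, 125.4 in replicate 1 and 112.3 in replicate 2, and the strongest nearest to Pdgfra had 214.9, with 109.0 and 106.6. Position does not tell which of the 2 genes a peak in this stretch belongs to.

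**Figure D5:**
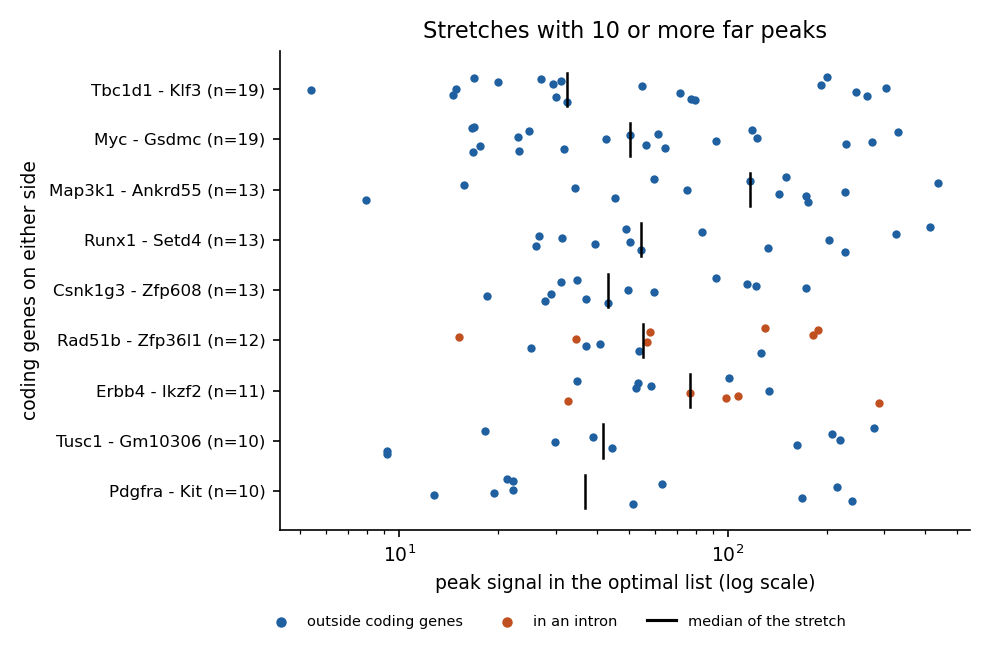
Signal of each far peak in the optimal list (log scale, no unit) in the 9 stretches with 10 or more far peaks, named by the coding genes on either side; blue points lie outside coding genes, orange points in an intron, and black bars are medians. Each stretch mixes strong and weak peaks, and the medians run from 32.4 for Tbc1d1 to Klf3 to 117.3 for Map3k1 to Ankrd55.

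A coding-gene distance can also be long because other genes lie between. Dad1 was the nearest coding gene of 9 far peaks that lay among the T-cell receptor alpha and delta segments, which GENCODE types apart from protein-coding genes. The strongest of them, 2366 bp from Traj61, had 166.0 in the optimal list, 78.1 in replicate 1 and 86.0 in replicate 2. All 9 held a GATA match, against 91.2% of all far peaks. With 2 further peaks, 11 far peaks (1.01%) lay within 100 kb of a receptor or immunoglobulin segment.

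In all, 12 lists of marker and pathway genes were set against the far peaks. Of all coding genes, 2.33% held a far peak in an intron or were the nearest coding gene of one. Among erythroid transcription factors it was 4 of 20: Klf3 (strongest 303.2), Klf13 (239.1), Nfia (68.7) and Bcl11a (14.7, with a summit in replicate 2 alone). Erythroid products had 3 of 33, Kit and Car2 (carbonic anhydrase, 148.5) among them, and stem and progenitor genes 5 of 22, among them Runx1, Myc, Kit and Meis1 (79.4). Heme and iron genes had 0 of 20, megakaryocyte genes 0 of 20, macrophage genes 0 of 18, and lymphoid and granulocyte genes 0 of 18. Hepatocyte factors had 2 of 21, Nr5a2 (87.4) and Tbx3 (16.1, with a summit in replicate 2 alone), and hepatocyte products 0 of 30. Endothelial genes had 1 of 18 (Kdr, 47.1), stellate and mesenchymal genes 1 of 20 (Pdgfra), and neuronal genes 4 of 20 (Dscam 405.1, Nrg1 211.7, Ptprd 82.9 and Csmd1 67.7).

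The lists are small and differ in gene length and spacing, which the rule favours, and no test of them was made. Of all coding genes, 30.8% were the nearest coding gene of a peak within 100 kb. In the lists this was so for 19 of 20 erythroid factors, 32 of 33 erythroid products, 18 of 20 heme and iron genes, 15 of 22 stem and progenitor genes and 12 of 20 megakaryocyte genes. It was so for 8 of 20 neuronal, 6 of 18 endothelial, 3 of 20 stellate and mesenchymal, 3 of 18 lymphoid and granulocyte and 1 of 18 macrophage genes, for 5 of 21 hepatocyte factors and for 10 of 30 hepatocyte products. Gata2, Myb, Sox6, Slc2a1, Ikzf1 and Lmo2, all known in blood cells, had no far peak but 2, 3, 21, 9, 9 and 11 nearer peaks. Zfpm2 had neither. Meis1 had 3 far peaks, at 136889 to 258020 bp, and no nearer one.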

How the data were processed

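The authors' peak lists were used as deposited: an optimal list of 17055 peaks, a conservative list, a pooled list and 1 list per library, on assembly mm10 per the labels. The signal deposited by the authors is a value per peak from their peak calling; each list has its own scale. For aligner, caller and thresholds: not given in the sources used here. Depth is unknown because no list gives read totals. The 12 optimal peaks on unplaced contigs were left out. Distances used every TSS of GENCODE M21 protein-coding genes; sequence and RefSeq starts came from GRCm38. Of 12 motifs, CTCF and the composite are given by name; all were searched on both strands, with overlaps allowed. Shares carry 95% Wilson intervals and differences of shares 95% Newcombe intervals, with a difference called when its interval left out 0. With 1 group of 2 libraries no test over samples exists, so no p-value is given. The members, gene lists, motifs and comparisons were chosen with earlier results of these data known. Of 254 listed genes, some of them in more than 1 list, 253 were in the annotation. Named genes are those of the 15 strongest far peaks of each class, the largest clusters, the most distant and weakest peaks, the hosts with most peaks, up to 4 per list, and 12 fixed genes; some of these are not reported here, and genes of stretches and receptor segments were chosen after their values were seen. The functions were tested on simulated data. Python 3.11.15, numpy 2.4.6, pandas 2.3.3, scipy 1.17.1 and pysam 0.24.0 were used. Alternatives were another peak list, distance limit, TSS set, comparison group, motif window and matching distance. Leaving out a library means that the 17055 strongest peaks of the other library's own list took the place of the optimal list.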

Additional observations from a re-analysis of the deposited data

How the results depend on the processing

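Of 130 values under alternatives, 102 kept their direction and their side of the threshold or, for counts, stayed within 1.5 times. The GATA and composite differences and that for another summit within 10 kb did so throughout: GATA ranged from 3.04 to 17.6 points, the composite from 2.09 to 9.64, and another summit from -16.5 to -7.89. The number of far peaks was 579 above the median signal, 2386 with a limit of 50 kb, 447 with 200 kb and 2022 when only gene starts counted as a TSS. In introns it was 142, 778, 70 and 1055 under these, 528 with starts of protein_coding transcripts and 512 with RefSeq mRNA starts (chosen after seeing the data). Outside genes it was 434, 1599 and 377 under the first 3. By construction, these settings use fewer peaks, another distance limit or fewer starts.

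The difference above the median signal turned to 1.59 points at 200 kb, to 3.23 points (0.17 to 6.28) against all other peaks and to 0.071 without replicate 1 (-0.32 without replicate 2), and was -3.90 points (-7.60 to -0.27), leaving out 0, with the strongest peak of each cluster. The difference in summits shared by both libraries was 1.52 points in the conservative list, 0.12 above the median signal, 1.61 at 200 kb and 1.62 without peaks within 500 bp of a stronger one (chosen after seeing the data; 41 far peaks), each with an interval that included 0, and turned to -0.57 with the strongest peak of each cluster. The repeat-masked difference included 0 at 200 kb (-0.95), with the strongest peak of each cluster (-1.30) and against all other peaks (-0.90); leaving out a library gave -2.44 to -1.24, the latter, without replicate 1, with an interval that included 0. The CTCF difference left out 0 with a 50-bp motif window (-0.46) and with RefSeq starts (-0.55). The cause was not tested for these. No paired analysis was possible because the 2 libraries form 1 group.

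Leaving out replicate 1 or 2 gave 1043 to 1072 far peaks, but these lists were cut to the size of the optimal list, which makes a similar count likely. Unknown depth limits what a missing summit in 1 library means. Peaks in 1 stretch or cluster are not independent, so intervals over peaks are too narrow.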
